A study of Equus asinus with 6 samples.

Results

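The genes described here are the transcription factors that drive the formation of fat cells, together with DLK1, a secreted and membrane-bound inhibitor of that process. They are the nuclear receptor PPARG and its partner RXRA, the CCAAT/enhancer-binding proteins CEBPA, CEBPB, CEBPD and CEBPG, the early commitment factors ZNF423, EBF1 and EBF2, and DLK1. They were chosen by gene name. Of the 10 names, 9 had a row among the 20873 rows of the deposited count table. CEBPB is not analysed here.

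Longissimus dorsi, a back muscle, was sampled from donkeys (Equus asinus) of the Guangling breed at 24 months of age, with no genetic change or treatment named in the labels. Muscle of high intramuscular fat (IMF) content gave 3 libraries and muscle of low IMF content gave 3 libraries. All tissue was frozen soon after slaughter, and RNA was extracted with Trizol. The sources used here give neither the measured fat content nor the sex of the animals. Nothing in the labels says that each library is a different animal. The p-values below therefore measure spread between libraries, which may be technical.

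As background, fat cells arise from progenitors in a cascade of transcription factors. CEBPB and CEBPD act early and are induced in culture by hormones, including glucocorticoids and agents that raise cyclic AMP. They switch on PPARG and CEBPA, which then maintain each other and bind, PPARG as a heterodimer with RXRA, at most genes of the mature fat cell. ZNF423 and the EBF factors mark or commit progenitors before that step. DLK1, also called preadipocyte factor, is high in preadipocytes, is lost when they mature, and is also made by muscle during growth and regeneration. In muscle the progenitors of fat cells are fibro-adipogenic progenitors, stromal cells marked by PDGFRA.

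The libraries held 39052998 to 47494157 assigned reads in high IMF muscle and 44313770 to 46360965 in low IMF muscle. A row of these 9 genes held between 43 and 11325 reads in a library. The tissue label was checked with a list of 10 skeletal muscle fibre genes, all of which were listed. Their summed level was 109385 to 176288 CPM (read counts scaled to the adjusted library size) in high and 128443 to 177809 CPM in low IMF libraries. Low IMF replicates 2 and 3 were closer to each other than any other pair of the same group. Their counts differed by a chi-square of 7.42 per degree of freedom, more than sampling noise, against 181 to 527 for the other pairs. They were counted as separate samples.

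By the authors' FPKM, a level per gene length, RXRA was the highest, with 39.4, 50.8 and 45.8 FPKM in high IMF muscle and 28.1, 52.9 and 49.9 FPKM in low IMF muscle. CEBPD followed with 30.8, 17.3 and 23.5 FPKM in high and 43.4, 35.5 and 35.5 FPKM in low IMF muscle. The ranges of these 2 genes over the 6 libraries overlapped. The CEBPD value rests on a short gene model, with an implied length of 711 bases and a deposited protein description marked partial. The lowest CEBPD library (17.3 FPKM) lay above the highest library of the next gene in order, CEBPG (10.6 FPKM). CEBPA, lower on average, reached 17.7 FPKM in high IMF replicate 2, above CEBPD in that library.

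The 7 other genes averaged 7.78 FPKM (CEBPG), 5.61 (ZNF423), 4.84 (CEBPA), 4.21 (EBF1), 3.51 (DLK1), 2.98 (PPARG) and 2.93 (EBF2) over the 6 libraries. Each gene in that order overlapped the next over the 6 libraries. Farther apart, the lowest CEBPG library (6.15 FPKM) lay above the highest libraries of PPARG (5.67 FPKM), EBF1 (5.50 FPKM) and EBF2 (5.35 FPKM). The master regulator PPARG was thus among the lowest, with 1.54 to 5.67 FPKM. CEBPA had by far the widest range, 0.38 to 17.7 FPKM, which covers every library of the 6 genes from CEBPG to EBF2 around it.

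**Figure D1:**
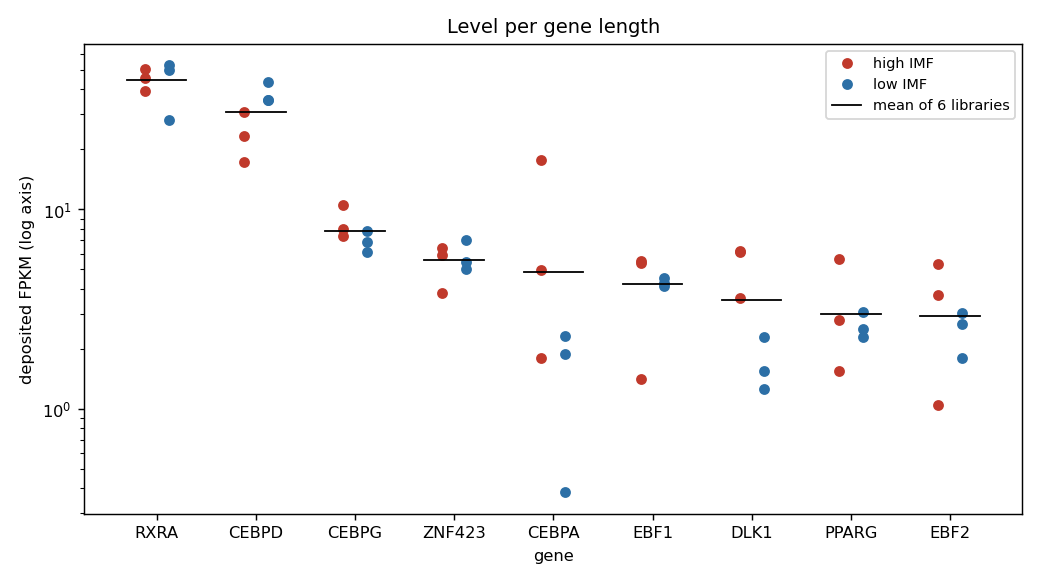
Deposited FPKM of each gene on a log axis, 1 point per library with high IMF left of low IMF, and the mean of the 6 libraries as a line. RXRA and CEBPD have the highest means. CEBPA spreads from 0.38 to 17.7 FPKM and lies above CEBPD in high IMF replicate 2.

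Relatives of these factors gave a frame for the levels. They were chosen by family. RXRG, the RXR enriched in muscle, averaged 14.8 FPKM over the 6 libraries and RXRB 13.6 FPKM. PPARA, the fat-oxidising relative of PPARG, averaged 7.58 FPKM and PPARD 4.43 FPKM. EBF3 averaged 6.83 FPKM and EBF4 0.607 FPKM. CEBPE, a factor of granulocytes, had 2, 0 and 22 reads in high IMF libraries and 0 in each low IMF library. DLK2, the relative of DLK1, had 2, 4 and 0 reads in high and 0, 0 and 2 reads in low IMF libraries. Both failed the filter on low counts and were not tested.

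High and low IMF muscle were compared to see which of these regulators go with the amount of fat. DLK1, CEBPD and CEBPA were the 3 genes that differed most. DLK1 was 2.89-fold higher and CEBPD 1.74-fold lower in high IMF muscle, each without overlap between the groups. CEBPA was 4.48-fold higher on average with overlap. PPARG, RXRA, CEBPG, ZNF423, EBF1 and EBF2 overlapped between the groups, and their fitted differences lay between -0.28 and 0.21 on the log2 scale.

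No gene of the set passed the test across all genes. All 9 passed the filter on low counts, and edgeR's quasi-likelihood test with Benjamini-Hochberg adjustment called 0 of them. Over all 15933 genes that test called 0% in either direction. An unadjusted p under 0.05 was found in edgeR for 3 of the 9 (DLK1, CEBPD and CEBPA), beside 7.27% of all genes. It was found in DESeq2 for the same 3, beside 7.54% of all genes, and in limma-voom for 2 (DLK1 and CEBPD), beside 6.97%. DESeq2 with adjustment called 1 of the 9 (DLK1), beside 1.16% of all genes, 0.68% higher and 0.477% lower, and the authors' deposited table called 1 beside 1.15%. Groups without overlap were found for 2 of the 9, beside 13% of all genes. High IMF lay above low IMF in 1 of them (6.86% of all genes) and below in 1 (6.1% of all genes). The median log2 fold was 0.17 over the 9 genes and 0.01 over all genes, and 5 of the 9 were above 0, beside 51.2% of all genes. The genes were named with earlier results of these data known, so these counts are descriptions.

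**Figure D2:**
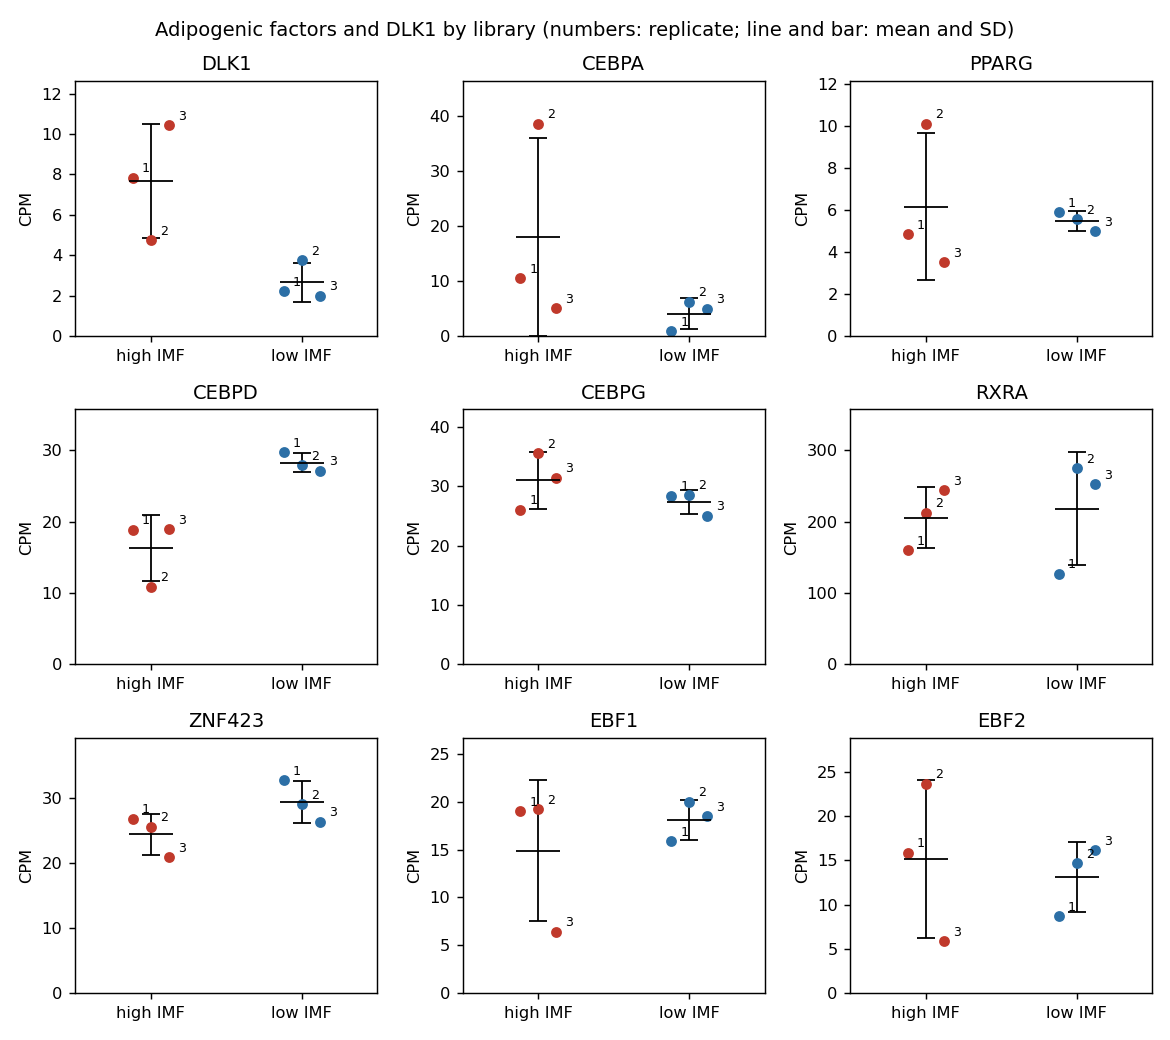
CPM of each gene in every library, high IMF left of low IMF, with points numbered by replicate and the mean and SD drawn in black. The groups separate for DLK1 (4.75 to 10.4 CPM in high against 1.99 to 3.76 CPM in low IMF) and for CEBPD (10.9 to 18.9 CPM in high against 27.2 to 29.8 CPM in low IMF), and overlap for the other 7 genes.

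DLK1 blocks adipogenesis in cultured preadipocytes of mice. It measured 7.84, 4.75 and 10.4 CPM in high IMF replicates 1 to 3, against 2.21, 3.76 and 1.99 CPM in low IMF replicates 1 to 3. Every high IMF library lay above every low IMF library, and the nearest pair was high IMF replicate 2 and low IMF replicate 2. The exact Poisson intervals (95%) of that pair overlapped, at 4.18 to 5.37 CPM in the high and 3.19 to 4.40 CPM in the low IMF library. These intervals cover counting error only. The means were 7.67 ± 2.84 CPM in high and 2.65 ± 0.962 CPM in low IMF muscle (SD, n = 3 each).

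The log2 fold of DLK1 was 1.53 in edgeR (unadjusted p = 0.0051, adjusted p = 0.51). In limma-voom it was 1.47 with a standard error of 0.413 and a 95% interval of 0.50 to 2.44. An exact permutation test of the log2 values gave a two-sided p of 0.1, the smallest that 3 against 3 libraries allow. DESeq2's Wald test gave an adjusted p of 0.0294, over 16775 genes with an adjusted p. The authors' deposited table lists DLK1 as up with a log2 fold of 1.519 and an adjusted p of 0.0295. That table's log2 folds of the 9 genes differed from the DESeq2 values by at most 0.000451, which makes the table and DESeq2 a single result. The DESeq2 call was lost without high IMF replicate 1 (adjusted p = 0.0897), high IMF replicate 3 (0.0944), low IMF replicate 1 (0.0926) or low IMF replicate 3 (0.299). It was kept without high IMF replicate 2 (0.00779) or low IMF replicate 2 (0.013).

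High DLK1 did not go with high fat cell or progenitor markers in every library. High IMF replicate 3 had the highest DLK1 (10.4 CPM) of the 6 libraries, while the fat cell coat gene PLIN1 was at 7.53 CPM and the progenitor receptor PDGFRA at 5.42 CPM there. In the other high IMF libraries PLIN1 was at 28.6 and 108 CPM and PDGFRA at 29.4 and 34.3 CPM. The ratio of DLK1 to PDGFRA reads was 0.267, 0.138 and 1.92 in high and 0.274, 0.150 and 0.0806 in low IMF libraries. It overlapped between the groups and ranged 23.9-fold. PDGFRA itself overlapped between the groups (edgeR adjusted p = 0.97). In whole muscle, fewer cells of a type and less RNA per cell cannot be told apart.

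Satellite cells and newly formed fibres can also carry DLK1, so a list of their markers was read beside it. As no gene tested passed edgeR's adjustment, no gene of this list could. Of 9 such genes tested, 5 had a log2 fold above 0, the median was 0.06 (-0.205 with high IMF replicate 2 left out to 0.266 with library size only, the ends over 14 other settings), and 0 had an unadjusted p under 0.05 in edgeR. The 3 genes of smallest p lay on both sides, each with overlap. MYH8, the perinatal myosin, measured 22.6, 59.8 and 86.6 CPM in high and 39.9, 223 and 202 CPM in low IMF libraries. SPRY1, a signalling inhibitor of quiescent satellite cells, measured 61.6, 43.1 and 33.2 CPM in high and 52.7, 73.2 and 75.2 CPM in low IMF libraries. MYOG, a factor of muscle differentiation, measured 29.8, 46.3 and 63.1 CPM in high and 35.0, 27.1 and 31.7 CPM in low IMF libraries. The summed level of the list was 210.7 to 263 CPM in high and 212 to 383 CPM in low IMF libraries. Its part in the DLK1 difference was not tested.

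DLK1 is an imprinted gene, expressed from the paternal copy, in a chromosome domain that also holds RTL1 and DIO3. RTL1 had 11, 14 and 6 reads in high and 2, 0 and 10 reads in low IMF libraries. DIO3, the enzyme that inactivates thyroid hormone, lay on the opposite side to DLK1. It measured 0.663, 0.713 and 0.0579 CPM in high and 1.21, 1.84 and 1.92 CPM in low IMF libraries, without overlap, and high IMF replicate 3 held only 2 reads. Its edgeR unadjusted p was 0.0498 and its adjusted p 0.687. BEGAIN, the coding gene next to DLK1 in the RefSeq annotation of the donkey, had 7 to 21 reads in every library, with overlap.

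Other imprinted genes that are often expressed together with DLK1 lay on both sides. Of 12 tested, 5 had a log2 fold above 0 and 7 below, with a median of -0.07 that turned to 0.095 with library size only and 0.101 with high IMF replicate 3 left out. An unadjusted p under 0.05 in edgeR was found for 0 above 0 (4.53% of all genes) and 3 below (2.74% of all genes). After adjustment 0 passed. Among the 3, beside DIO3, were the cell cycle inhibitor CDKN1C and the insulin receptor adaptor GRB10. CDKN1C measured 41.4 ± 12.01 CPM in high and 70.2 ± 3.01 CPM in low IMF muscle. GRB10 measured 202 ± 57.5 CPM in high and 333 ± 17.2 CPM in low IMF muscle, and neither gene overlapped between the groups. In that list 5 of 12 genes were without overlap, beside 13% of all genes.

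DLK1 resembles the ligands of NOTCH receptors but lacks the part that activates them. In the NOTCH pathway 17 genes were tested, 9 with a log2 fold above 0 and 8 below. In edgeR 1 gene above 0 (4.53% of all genes) and 3 below (2.74% of all genes) had an unadjusted p under 0.05. After adjustment 0 passed. The canonical ligand DLL1 measured 55.3, 63.7 and 56.6 CPM in high and 12.4, 36.1 and 28.5 CPM in low IMF libraries (adjusted p = 0.528). The NOTCH target HEY1 measured 16.5, 9.27 and 5.33 CPM in high and 29.8, 29.3 and 24.2 CPM in low IMF libraries (adjusted p = 0.523). Both were without overlap, in opposite directions. In the NOTCH list 4 of 17 genes were without overlap, beside 13% of all genes. HEY1 is also a gene of blood vessels. The endothelial list lay on the same side, with 10 of 11 genes below 0, and its summed level was 793 to 1146 CPM in high and 1246 to 1374 CPM in low IMF libraries. Its part in the HEY1 difference was not tested. HEY2, a related target, measured 2.07 ± 1.22 CPM in high and 5.37 ± 1.99 CPM in low IMF muscle, with overlap.

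Among other inhibitors of adipogenesis, 15 genes were tested, 8 above 0 and 7 below. An unadjusted p under 0.05 in edgeR was found for 3 genes above 0 (4.53% of all genes) and 1 below (2.74% of all genes). After adjustment 0 passed. The ligand WNT10B, which restrains adipogenesis in mice, measured 3.31, 1.80 and 1.22 CPM in high and 0.813, 0.339 and 0.292 CPM in low IMF libraries. TGFB1, a growth factor that blocks fat cell formation, measured 16.0, 8.33 and 7.94 CPM in high and 6.15, 6.21 and 6.83 CPM in low IMF libraries. Both, like DLK1, were without overlap, but their highest library was high IMF replicate 1, not replicate 3. In the list of inhibitors 4 of 15 genes were without overlap, beside 13% of all genes. FOXO1, which represses PPARG, lay on the opposite side with 22.4 ± 2.38 CPM in high and 30.8 ± 1.17 CPM in low IMF muscle.

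The genes whose level over the 6 libraries was closest to that of DLK1 were the septin SEPT1 and the MAP kinase phosphatase DUSP5. The measure was the root mean square difference of log2 CPM, each gene centred on its own mean, among 12028 named genes of at least 1 CPM. It was 0.244 for SEPT1 and 0.251 for DUSP5, and 0.382 to 0.392 for PSD4, QRICH2 and PAQR9, beside a spread of DLK1 itself of 0.873. DUSP5 measured 2.74, 1.13 and 2.55 CPM in high and 0.438, 1.12 and 0.511 CPM in low IMF libraries. None of the 5 is a gene of the fat cell lists.

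CEBPA acts late in adipogenesis and is needed for white fat. It measured 10.5, 38.6 and 5.01 CPM in high IMF libraries and 0.896, 6.26 and 4.98 CPM in low IMF libraries. High IMF replicate 2 was far above all others, and low IMF replicate 1 far below. High IMF replicate 3 lay among the low IMF libraries. The means were 18.1 ± 18.0 CPM in high and 4.05 ± 2.80 CPM in low IMF muscle (SD, n = 3 each), and the highest library was 43.1-fold above the lowest.

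By edgeR the CEBPA log2 fold was 2.16 (unadjusted p = 0.0462, adjusted p = 0.678), and the 95% interval by limma-voom was -0.21 to 4.65. The edgeR log2 fold was 0.93 with high IMF replicate 2 left out and 1.68 with low IMF replicate 1 left out. In DESeq2 the adjusted p was 0.532 with all libraries and 0.0261 with high IMF replicate 3 left out. With any other library left out it was 0.251 to 0.9997. The authors' deposited table gives a log2 fold of 2.153 and an adjusted p of 0.533.

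The ratio of CEBPA to fat cell markers varied less than CEBPA itself. PLIN1 measured 28.6, 108 and 7.53 CPM in high and 1.56, 20.9 and 15.5 CPM in low IMF libraries. The ratio of CEBPA to PLIN1 reads was 0.368, 0.358 and 0.665 in high and 0.573, 0.299 and 0.322 in low IMF libraries. It ranged 2.23-fold, against 43.1-fold for CEBPA itself, and overlapped between the groups. To the adipokine ADIPOQ the ratio ranged 6.68-fold. It was 0.347, 0.234 and 0.840 in high and 0.297, 0.126 and 0.136 in low IMF libraries. The fat cell list, matched by name, had 8 of its 10 genes tested, 6 of them above 0. TRARG1, a newer name of TUSC5, was on the list but had no row, so TUSC5 was not counted in it. The summed level of the list was 397 to 818 CPM in high and 574.5 to 633 CPM in low IMF libraries. A median over its genes, each as log2 CPM centred on its own mean, was also taken. This median was 0.645, 2.81 and -0.883 in high and -2.618, 0.245 and 0.059 in low IMF libraries. Leptin (LEP) was at 0 in low IMF replicate 1, the library of lowest CEBPA. The part of fat cell content in the CEBPA difference was not tested.

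Fat cell genes were among those closest to CEBPA in pattern. The root mean square difference on the log2 scale was 0.267 for PRRT4, 0.307 for CIDEA, 0.352 for TUSC5, 0.389 for CIDEC and 0.428 for ALDOC, beside a spread of CEBPA of 1.60. CIDEA and CIDEC coat the lipid droplet of fat cells, and TUSC5 serves glucose transport there. CIDEC measured 7.53, 22.5 and 1.65 CPM in high and 0.563, 3.49 and 1.97 CPM in low IMF libraries. CEBPG, the coding gene next to CEBPA in the RefSeq annotation, stayed within 25.02 to 35.5 CPM, and the ratio of CEBPA to CEBPG reads ranged 34.4-fold.

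**Figure D3:**
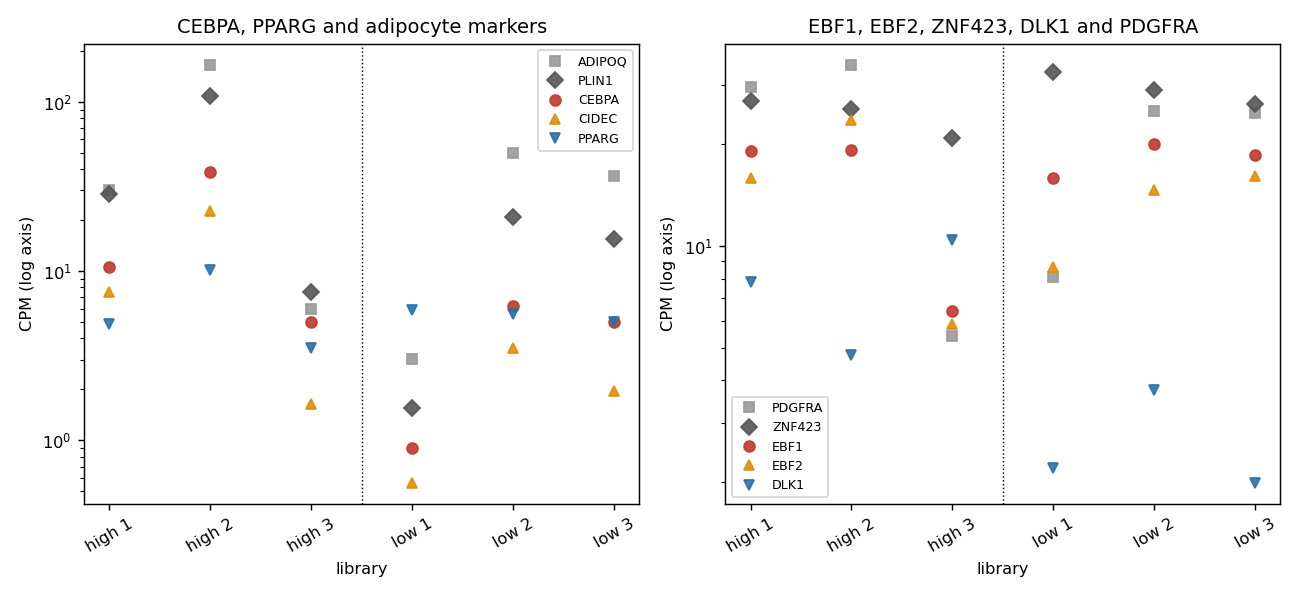
CPM on a log axis in each library, high IMF left of the dotted line. On the left, CEBPA, PLIN1, ADIPOQ and CIDEC are all highest in high IMF replicate 2 and lowest in low IMF replicate 1, while PPARG stays between 3.51 and 10.1 CPM. On the right, EBF1, EBF2 and PDGFRA are lowest in high IMF replicate 3, where DLK1 is highest at 10.4 CPM.

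PPARG measured 4.86, 10.1 and 3.51 CPM in high IMF libraries and 5.90, 5.58 and 4.98 CPM in low IMF libraries. High IMF replicate 2 was the highest, as for CEBPA, and the other high IMF libraries lay below all 3 low IMF libraries. The log2 fold was 0.17 in edgeR (adjusted p = 0.966), with a 95% interval of -0.83 to 1.02 in limma-voom. With high IMF replicate 2 left out it was -0.41. The counts do not separate the isoforms of PPARG.

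PPARG and CEBPA differed in rank in the library with least PLIN1. In low IMF replicate 1 PPARG was at 5.90 CPM, the second highest of the 6 libraries, while CEBPA was at its lowest, 0.896 CPM. The ratio of PPARG to PLIN1 reads was 0.170, 0.0938 and 0.465 in high and 3.77, 0.266 and 0.322 in low IMF libraries, a 40.2-fold range. PPARG is also expressed by macrophages and endothelium. The macrophage list (11 genes, 10 of them above 0) had a summed level of 39.2 to 169 CPM in high and 43.9 to 48.1 CPM in low IMF libraries. Its part in the PPARG levels was not tested.

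The closest genes to PPARG by the same measure were TTLL5 (0.158), FADS2 (0.166), GLIPR1L2 (0.169), CFD (0.180) and XIRP2 (0.181), beside a spread of PPARG of 0.458. CFD encodes the fat cell protease adipsin, and FADS2 a desaturase of polyunsaturated fatty acids. CFD measured 125, 193 and 69.7 CPM in high and 117, 141 and 121 CPM in low IMF libraries. XIRP2 is a muscle fibre gene.

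RXRA, the obligate partner of PPARG and of several other nuclear receptors, measured 159.8, 212 and 244 CPM in high and 127, 275 and 252 CPM in low IMF libraries. Low IMF replicate 1 was the lowest and low IMF replicate 2 the highest, so the low IMF group spanned the high IMF group. The log2 fold was -0.09 (edgeR adjusted p = 0.976), with a 95% interval of -0.80 to 0.74 in limma-voom. Its sign turned with the scaling, to 0.058 with library size only. RXRB, chosen by family, measured 31.3, 41.5 and 48.5 CPM in high and 54.1, 52.7 and 51.5 CPM in low IMF libraries without overlap (edgeR adjusted p = 0.746).

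CEBPD, the early factor, was lower in every high IMF library than in any low IMF library. It measured 18.9, 10.9 and 18.9 CPM in high IMF libraries, against 29.8, 28.0 and 27.2 CPM in low IMF libraries. The 3 low IMF libraries lay close together, with a coefficient of variation of 4.72%, beside a median of 18.6% over all genes in that group. High IMF replicate 2, the library richest in CEBPA, had the least CEBPD. The means were 16.3 ± 4.62 CPM in high and 28.3 ± 1.34 CPM in low IMF muscle (SD, n = 3 each).

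The log2 fold of CEBPD was -0.80 in edgeR (unadjusted p = 0.0106, adjusted p = 0.523). In limma-voom it was -0.87 with a standard error of 0.237 and a 95% interval of -1.42 to -0.31. The exact permutation test gave a two-sided p of 0.1, again the smallest possible. In DESeq2 the adjusted p was 0.148 with all libraries, and 0.047 with high IMF replicate 3 left out. With any other library left out it was 0.0962 to 0.574. The authors' deposited table gives a log2 fold of -0.813 and an adjusted p of 0.148. Leaving out each library in turn kept the edgeR log2 fold between -0.94 and -0.60.

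Genes that glucocorticoids or cyclic AMP induce, as they induce CEBPD in culture, lay on both sides. Of 19 tested, 8 were above 0 and 11 below, with a median of -0.23 (-0.373 with high IMF replicate 3 to -0.086 with high IMF replicate 2 left out). An unadjusted p under 0.05 in edgeR was found for 1 above 0 (4.53% of all genes) and 5 below (2.74% of all genes). After adjustment 0 passed. The summed level of the list was 3924, 2514 and 3724 CPM in high and 1814, 3794 and 3630 CPM in low IMF libraries. The clock gene PER1 measured 131 ± 23.1 CPM in high and 375 ± 16.6 CPM in low IMF muscle, and the factor KLF15 41.9 ± 16.8 CPM in high and 113.8 ± 12.3 CPM in low IMF muscle. The kinase SGK1, a classical glucocorticoid target, lay on the opposite side at 40.2 ± 3.06 CPM in high and 17.9 ± 5.39 CPM in low IMF muscle. None of these 3, the genes of smallest p in the list at 1 CPM or more, overlapped between the groups. Of all 19 genes 6 were without overlap, beside 13% of all genes. Hormone levels were not among the measurements.

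The closest pattern to CEBPD was that of BCL6, a transcriptional repressor, with a root mean square difference of 0.122 on the log2 scale, beside a spread of CEBPD of 0.499. BCL6 measured 373, 220.1 and 322 CPM in high and 606, 470.3 and 465 CPM in low IMF libraries. METTL12, HIBCH, WDR97 and BEST3 followed at 0.136 to 0.148. HIBCH is a mitochondrial enzyme of valine breakdown.

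CEBPG, a partner of the other C/EBP proteins that by itself activates transcription poorly, varied least in its ratio of highest to lowest library, 1.42-fold. It measured 26.03, 35.5 and 31.5 CPM in high and 28.4, 28.6 and 25.02 CPM in low IMF libraries, with overlap. The log2 fold was 0.18 (edgeR adjusted p = 0.902), with a limma-voom interval of -0.22 to 0.57. CEBPA, CEBPD and CEBPG thus had fitted log2 folds of 2.16, -0.80 and 0.18. The differences between them were not tested.

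ZNF423, a zinc finger protein that commits preadipocytes, measured 26.8, 25.5 and 20.8 CPM in high and 32.6, 29.0 and 26.3 CPM in low IMF libraries. The groups overlapped by 1 library, since high IMF replicate 1 lay above low IMF replicate 3. The log2 fold was -0.27 (edgeR adjusted p = 0.836), with a limma-voom interval of -0.66 to 0.13. In the RefSeq annotation 2 long noncoding RNA genes overlap ZNF423. Whether the authors' counting used strand is not given in the sources used here, so reads of the 3 genes may not be separable.

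EBF1, a factor of B cells, stroma and fat cells, measured 19.05, 19.3 and 6.43 CPM in high and 15.9, 20.1 and 18.5 CPM in low IMF libraries. EBF2, which marks progenitors of beige and brown fat in mice, measured 15.9, 23.7 and 5.88 CPM in high and 8.65, 14.7 and 16.1 CPM in low IMF libraries. Both were lowest in high IMF replicate 3. The log2 folds were -0.28 for EBF1 and 0.21 for EBF2 (edgeR adjusted p = 0.937 and 0.966). With high IMF replicate 3 left out the log2 folds were 0.073 for EBF1 and 0.58 for EBF2. EBF1 and EBF2 were closer to each other than any other pair of the 9 genes except CEBPG and ZNF423, with a root mean square difference of 0.352 on the log2 scale.

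High IMF replicate 3 was also lowest in PDGFRA, at 5.42 CPM, beside 29.4 and 34.3 CPM in the other high IMF libraries and 8.07, 25.02 and 24.7 CPM in the low IMF libraries. The ratio of EBF2 to PDGFRA reads stayed between 0.539 and 1.09 over the 6 libraries, a 2.01-fold range, where EBF2 itself ranged 4.02-fold. For EBF1 the ratio ranged more than the gene, 3.51-fold against 3.12-fold for EBF1 itself. The same held for ZNF423, with 5.45-fold against 1.57-fold for ZNF423 itself. The list of progenitor and fibroblast genes had all 14 of its genes tested, 13 of them above 0. Its summed level was 1854, 1534 and 481 CPM in high and 609, 987 and 1083 CPM in low IMF libraries. The B cell list, relevant to EBF1, summed to 11.2 to 19.4 CPM in high and 7.15 to 11.99 CPM in low IMF libraries. The part of these cell types in the EBF levels was not tested.

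**Figure D4:**
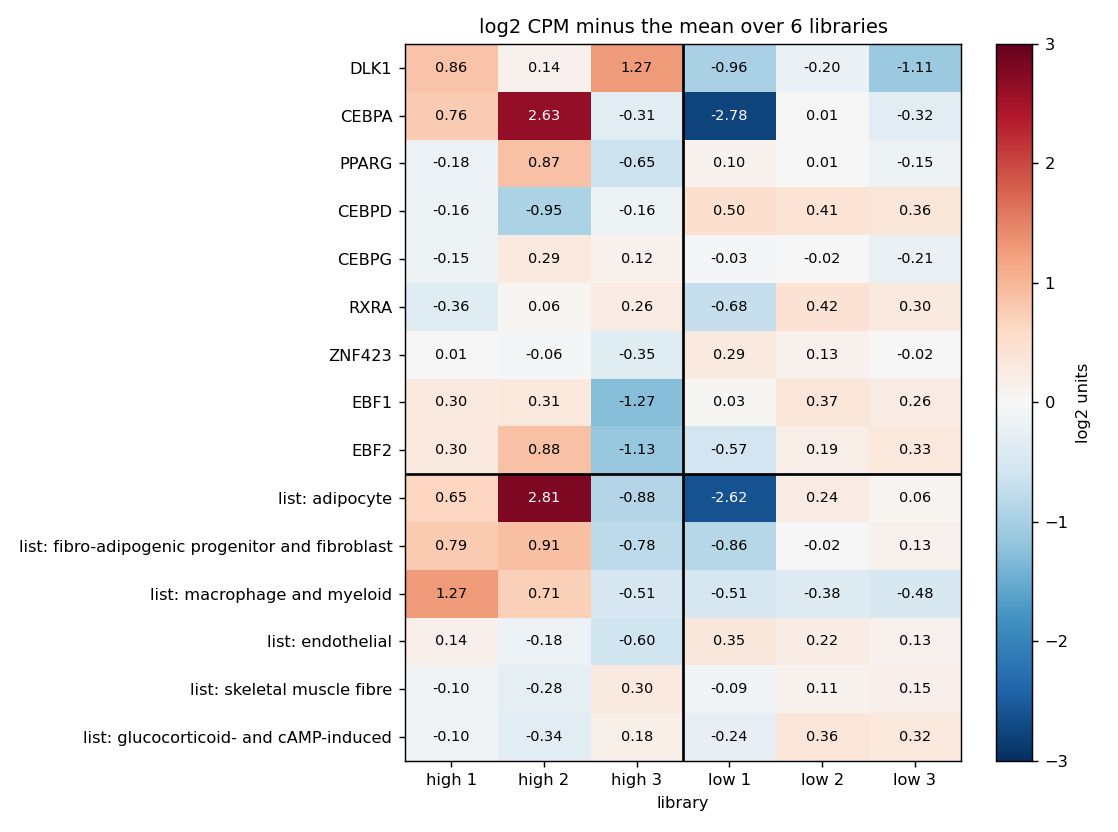
Log2 CPM minus the mean over the 6 libraries for each gene (above the line) and the median of the same over the genes of each cell type or pathway list (below it), with high IMF left of low IMF. CEBPA (2.63 in high IMF replicate 2, -2.78 in low IMF replicate 1) runs beside the fat cell list (2.81 and -2.62), and CEBPD is below 0 in the high and above 0 in the low IMF libraries.

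Genes that PPARG and the C/EBP factors are known to activate in fat cells had a positive log2 fold more often than a negative one. Of 25 tested, 16 had a log2 fold above 0 and 9 below, with a median of 0.65, beside 0.01 over all genes. All 8 tested genes of the fat cell list are among these 25, so the lists are not separate observations. The median of 0.65 became 0.177 with high IMF replicate 2, 0.251 with high IMF replicate 1 and 0.94 with high IMF replicate 3 left out. An unadjusted p under 0.05 in edgeR was found for 8 genes above 0 (4.53% of all genes) and 1 below (2.74% of all genes), and 0 passed the adjustment. MGST1, a membrane glutathione transferase, measured 1.79, 11.8 and 1.22 CPM in high and 0.146, 0.436 and 0.267 CPM in low IMF libraries. The triglyceride enzyme DGAT2 measured 72.4, 62.7 and 35.1 CPM in high and 13.5, 9.58 and 8.997 CPM in low IMF libraries. The desaturase SCD measured 131, 314 and 18.8 CPM in high and 6.59, 14.9 and 13.6 CPM in low IMF libraries. Of the 25 genes, 5 were without overlap between the groups, beside 13% of all genes. These 3 were among them and were named for the smallest p among list genes of at least 1 CPM. Their edgeR adjusted p was 0.263 for DGAT2 and 0.51 for MGST1 and SCD.

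Other transcription factors and coregulators of adipogenesis more often had a negative log2 fold. Of 32 tested, 11 were above 0 and 21 below, with a median of -0.09 that turned to 0.054 with library size only. In edgeR 2 genes above 0 (4.53% of all genes) and 2 below (2.74% of all genes) had an unadjusted p under 0.05. After adjustment 0 passed. ZBTB16, a zinc finger factor induced by glucocorticoids, measured 98.5, 84.1 and 101.7 CPM in high and 126, 163 and 153 CPM in low IMF libraries (edgeR adjusted p = 0.523). Its groups did not overlap, as held for 9 of the 32 genes, beside 13% of all genes.

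**Figure D5:**
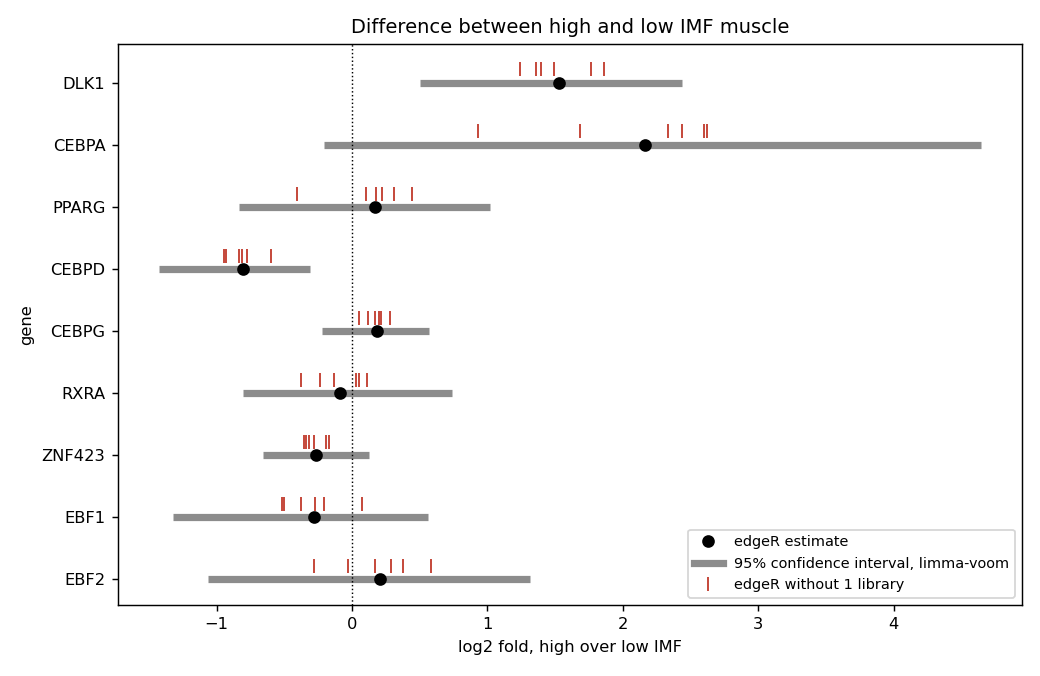
Log2 fold of each gene, high over low IMF, as the edgeR estimate (black), the limma-voom 95% interval (grey) and the edgeR estimates with 1 library left out (red ticks). DLK1 stays above 0 (1.24 to 1.86) and CEBPD below 0 (-0.94 to -0.60) whichever library is left out, while PPARG, RXRA, EBF1 and EBF2 cross 0.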

How the data were processed

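Per the file headers, the deposited table holds raw read counts per gene, FPKM, and the authors' own comparison (a fold, its log2 value, p-values and adjusted p-values) of high over low IMF. The deposited ratio, log2 fold and p-value columns are credited to that table wherever printed. The submitters' processing notes name HISAT2 and the mouse build mm9, while the deposited protein descriptions are of donkey and horse. The build, the counter, its annotation and its use of strand are therefore uncertain, and no coordinates or sequences are given. The protocol and the design text name different sequencers, and no batch is given, so none could be modelled. The per-sample files matched the series table (0 cells differed).

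Genes were matched by name. LOC numbers were matched to symbols by gene identifier in RefSeq (876 rows), and 726 rows with an identifier only (0.704% of reads) stayed in the tests. edgeR 4.0.16 in R 4.3.3 was run with TMM normalization and filterByExpr (15933 genes, 99.96% of reads), a quasi-likelihood F-test without covariates, and Benjamini-Hochberg adjustment over all genes (threshold 0.05). CPM values are on TMM-adjusted library sizes. Standard errors and 95% intervals are from limma-voom (limma 3.58.1). The fit was tested on simulated data, with a pass condition set only at a low fixed spread between libraries, not at the spread of these libraries. Alternatives were DESeq2 1.42.0, other scalings and filters, a replicate block, summed low IMF replicates 2 and 3, and each library left out. Levels per gene length use the authors' FPKM.

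The genes and the 17 lists were chosen with earlier results of these data known. Named beside the 10 genes are up to 3 genes of smallest p per list (at least 1 CPM), not all of which are given, the 5 genes of closest pattern to DLK1, PPARG, CEBPA and CEBPD, and PLIN1, ADIPOQ and PDGFRA. Family members and genes of the DLK1 domain were added by family or position.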

Additional observations from a re-analysis of the deposited data

How the results depend on the processing

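The count of genes called was 0 in edgeR and under every other setting except DESeq2 (194 genes, 1570 at an unadjusted p under 0.05) and edgeR without high IMF replicate 1 (3), so that it ranged from 0 to 3 over the edgeR fits with 1 library left out. edgeR had 1158 genes at an unadjusted p under 0.05 and limma-voom 1111. The count of the 9 genes called was 0 in edgeR, also with each library left out, 1 (DLK1) in DESeq2, and 0 to 2 in DESeq2 with 1 library left out, fits that were added after seeing the data. DLK1, CEBPA, CEBPD, CEBPG and ZNF423 kept their direction under all 14 planned settings. RXRA turned positive with library size only (0.058), with low IMF replicates 2 and 3 summed (0.067), and without high IMF replicate 1 (0.051), low IMF replicate 2 (0.11) or low IMF replicate 3 (0.027). In DESeq2 without the same libraries it was 0.059, 0.107 and 0.022. PPARG and EBF2 turned negative without high IMF replicate 2 (-0.406 and -0.284, in DESeq2 -0.401 and -0.288), EBF2 also without low IMF replicate 1 (-0.028, in DESeq2 -0.038). EBF1 turned positive without high IMF replicate 3 (0.073, in DESeq2 0.066). With 1 library left out, edgeR gave -0.406 to 0.446 for PPARG, -0.52 to 0.073 for EBF1, -0.284 to 0.584 for EBF2 and -0.373 to 0.11 for RXRA. The cause was not tested.

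Scaling by library size only gave a median over all genes of 0.15, against 0.008 with TMM. Same-numbered libraries deviated together with correlations over genes of 0.185, 0.14 and 0.013, which do not pair them. With the replicate block edgeR called 0 genes and 0 of the 9, with log2 folds of 1.52 for DLK1, 2.09 for CEBPA and -0.84 for CEBPD. The comparison of FPKM with CPM over a deposited gene length was not run, since the table has no length column. Each of the 9 genes had at least 43 reads in every library, and the nearest DLK1 libraries of the 2 groups had overlapping counting intervals.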

Other observations

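Lists of other cell types in the muscle differed in where the libraries lay, and 0 of their genes passed edgeR's adjustment. Each median log2 fold is followed by its lowest and highest value over the 14 other settings. The T cell list had 8 of 8 genes above 0 and a median of 1.56 (1.15 without high IMF replicate 1 to 2.48 without low IMF replicate 1). Its summed level was 33.2, 17.9 and 14.1 CPM in high and 13.4, 4.78 and 4.62 CPM in low IMF libraries. The macrophage list had a median of 1.19 (0.629 without high IMF replicate 1 to 1.59 without high IMF replicate 3). Its factor SPI1 measured 8.68, 5.87 and 3.56 CPM in high and 2.52, 2.23 and 2.09 CPM in low IMF libraries, without overlap. In the macrophage list 2 of 11 genes were without overlap, beside 13% of all genes. The B and plasma cell list had 4 of 6 genes above 0 with a median of 0.57 (0.099 without high IMF replicate 1 to 1.201 without low IMF replicate 1). The fat cell list had a median of 1.55 (0.177 without high IMF replicate 2 to 2.12 without low IMF replicate 2). The progenitor and fibroblast list had one of 0.70 (0.365 in limma-voom to 0.966 without high IMF replicate 3).

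The smooth muscle and pericyte list had 8 of 10 genes below 0 with a median of -0.37 (-0.496 without high IMF replicate 2 to -0.222 with library size only). The contractile gene MYH11 measured 41.2, 89.4 and 25.5 CPM in high and 85.8, 317 and 253 CPM in low IMF libraries, with overlap. The endothelial list had a median of -0.46 (-0.607 without high IMF replicate 1 to -0.226 without high IMF replicate 3). Its gene FLT1, a receptor of vessel growth, was at 58.9 ± 10.7 CPM in high and 123 ± 5.88 CPM in low IMF muscle. The muscle fibre list had 7 of 10 genes below 0 with a median of -0.17 (-0.252 to -0.029, the upper end without high IMF replicate 1). The Schwann cell list had 5 of 8 below 0 with a median of -0.08 (-0.826 in limma-voom to 0.414 without high IMF replicate 1). Its level in high IMF replicate 1 was -2.97 on the centred log2 scale. Of the blood list 1 gene, HBA1, was tested, with a log2 fold of 2.24 (0.34 without high IMF replicate 1 to 3.19 without low IMF replicate 1). It measured 14.03, 1.201 and 1.91 CPM in high and 2.38, 0.849 and 0.389 CPM in low IMF libraries. The NOTCH list had a median of 0.004 (-0.123 without high IMF replicate 1 to 0.182 with library size only). The inhibitors of adipogenesis had one of 0.006 (-0.146 without low IMF replicate 1 to 0.26 with library size only).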
